A study of Mus musculus with 4 samples.

Results

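Cells carry proteins that recognise foreign or misplaced RNA and DNA, and 10 genes of this system were examined in the 22063 genes of the table, by matching the gene symbols Ifih1, Dhx58, Tlr3, Zbp1, Eif2ak2, Mavs, Tbk1, Adar, Trex1 and Samhd1. All 10 were found and all 10 passed the filter on low counts. The cells were ID8, a mouse ovarian cancer line, which in the study's methods was kept in DMEM with serum and given shRNAs by pLKO.1-puro lentivirus. The shCtrl group (2 libraries) carried a control shRNA and is labelled wild type, and the shUSP9X group (2 libraries) carried an shRNA against Usp9x, a deubiquitinase gene, and is labelled a USP9X knockdown. Whether the group was 1 clone or a pool is not given in the sources used here, and the shRNA sequences were not used here. Poly(A)-enriched RNA was sequenced, and library totals were 17232006 and 15611363 estimated counts in shCtrl against 19978889 and 17021261 in shUSP9X. No label says that the libraries of a group came from separate cultures, so that the p-values below measure the spread between these libraries, which may be technical.

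In this system, helicases of the RIG-I family bind double-stranded RNA in the cytosol and signal through the adaptor MAVS on mitochondria, while TLR3 binds such RNA in endosomes and is therefore not a cytosolic sensor in the strict sense. The kinase TBK1 lies downstream of several of these receptors and phosphorylates IRF3, which switches on the interferon-β gene. A further group of enzymes edits or degrades the cell's own nucleic acids and so limits their recognition. Many genes of the system are themselves induced by interferon.

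The shRNA target was checked first. Usp9x (ENSMUSG00000031010, GRCm38 chromosome X, 13071498 to 13173328) had 5169 and 4453 counts in shCtrl against 390 and 346 in shUSP9X. Its log2 fold change, here always shUSP9X minus shCtrl, was -3.85 (standard error, SE, 0.06, adjusted p by edgeR = 4.66e-26), and the groups did not overlap. With an offset for GC content and length, described below for Ifih1, it was -2.51. The labels and the measured target thus pointed the same way.

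Of the 10 sensing genes, Zbp1, Dhx58, Adar, Trex1, Samhd1 and Mavs rose in shUSP9X cells, Eif2ak2 and Tbk1 fell, and Ifih1 and Tlr3 did not pass the test (edgeR's quasi-likelihood test, adjusted p under 0.05 over the 11448 genes tested). The 6 genes that rose stand beside 33.8% of all genes tested that were called higher, and the 2 that fell beside 33.6% called lower. Zbp1 passed the filter on low counts only through the shUSP9X libraries and Dhx58 reached its level in only 1 shCtrl library, so the counts and the median that include them are no support for a direction. Of the other 8 genes, 4 rose and 2 fell. Values per library are given as CPM, the counts scaled to library size after TMM normalization. The median log2 fold change of the 10 genes was 0.57, against -0.000513 for all genes tested. At the cutoff of the study's methods, a p below 0.05 without adjustment together with more than 1.5-fold, 5 of the 10 were higher and 0 lower, where 10.8 and 18.7% of all genes were. Mavs, Eif2ak2 and Tbk1 lay inside that fold limit, and Samhd1, at 1.53-fold, was only just past it.

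**Figure D1:**
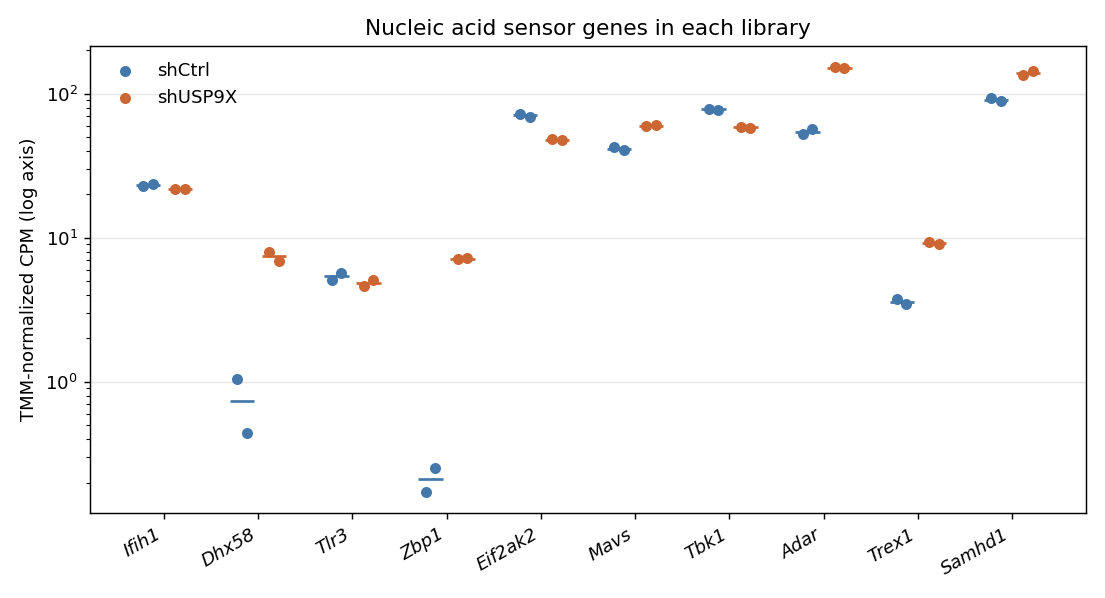
Expression of the 10 sensing genes in each library, in TMM-normalized CPM on a log axis. Points are libraries and short lines are group means (n = 2 each). Zbp1 and Dhx58 lay at or below 1.04 CPM in both shCtrl libraries and above 6.9 CPM in both shUSP9X libraries, while the libraries of Ifih1 and Tlr3 lay close together.

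Among the receptors of double-stranded RNA, Ifih1 and Dhx58 belong to the same helicase family but behaved differently. Ifih1 (ENSMUSG00000026896, chromosome 2, 62595798 to 62646255) encodes MDA5, which senses long double-stranded RNA. It had 22.8 and 23.5 CPM in shCtrl and 21.7 and 22.0 CPM in shUSP9X. Both shUSP9X libraries lay slightly below both shCtrl libraries, and the log2 fold change of -0.08 (95% interval -0.29 to 0.12) was not called (adjusted p by edgeR = 0.466). Its transcript has a GC content of 42.8%, and the genes of its GC decile (decile 2 of 10) had a median log2 fold change of -0.41. With an offset that removes each library's trend on GC content and transcript length, the log2 fold change of Ifih1 was 0.44 and was called (adjusted p by edgeR = 4.05e-04, and between 2.38e-04 and 0.836 under other settings). The direction of Ifih1 thus depended on the processing.

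Dhx58 (ENSMUSG00000017830, chromosome 11, 100694884 to 100704271) encodes LGP2, a helicase of the same family that lacks the caspase recruitment domains needed for signaling and acts on MDA5 and RIG-I. It had 18 and 7 counts in shCtrl (1.04 and 0.443 CPM) and 157 and 117 counts in shUSP9X (7.94 and 6.94 CPM). Every shUSP9X library lay far above the shCtrl libraries, which in relative terms differed more from each other than the shUSP9X libraries did. As a description only, since Dhx58 needed its shUSP9X libraries to pass the filter, the log2 fold change was 3.30 (SE 0.30), a 9.83-fold rise. It was 4.06 without shCtrl replicate 1 and 2.84 without shCtrl replicate 2, so the size rests on few counts in shCtrl. An antisense gene, Dhx58os, covers 141 of its 3272 exon bases.

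Tlr3 (ENSMUSG00000031639, chromosome 8, 45395665 to 45411080), the endosomal receptor, had 5.07 and 5.69 CPM in shCtrl and 4.65 and 5.10 CPM in shUSP9X. The groups overlapped, and the log2 fold change was -0.14 (95% interval -0.56 to 0.28, adjusted p by edgeR = 0.552). With the GC and length offset it was 0.47 (adjusted p by edgeR = 0.0452, and between 0.0452 and 0.859 under other settings). Its GC content of 40.0% is in the lowest decile, where the median log2 fold change was -0.80. An antisense gene covers 381 of its 5207 exon bases.

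Zbp1 (ENSMUSG00000027514, chromosome 2, 173206612 to 173218923) encodes a sensor of Z-form nucleic acid that can start necroptosis through RIPK3. It had 3 and 4 counts in shCtrl against 140 and 122 counts in shUSP9X, or 0.173 and 0.253 CPM against 7.08 and 7.24 CPM. In shCtrl the gene was thus at or just above the floor of 3 counts, and it passed the filter only through the shUSP9X libraries. The ratio of the summed counts, scaled by library size, was 33.9 with a 95% interval of 16.2 to 85.1 (exact Poisson interval, which covers counting error only). The fitted log2 fold change was 5.04 (SE 0.37), which is given as a description, since a gene that passed in this way had to be higher. Some leukocyte markers moved with Zbp1 and Dhx58. The 13 markers of the list summed to 0.0577 and 0.0632 CPM in shCtrl and to 9.26 and 10.1 CPM in shUSP9X, of which Itgam gave 3.64 and 4.45 CPM and Adgre1 2.93 and 3.50 CPM, while 5 of the 13 were at 0 in every library and Lyz2 had 0 and 2 counts in shUSP9X. Their part in the Zbp1 and Dhx58 results was not tested.

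Eif2ak2 (ENSMUSG00000024079, chromosome 17, 78852564 to 78882573) encodes PKR, a kinase that binds double-stranded RNA and shuts down translation by phosphorylating eIF2α. It had 72.8 and 68.9 CPM in shCtrl and 48.5 and 47.4 CPM in shUSP9X, so the groups were apart and the gene moved against Zbp1 and Dhx58. The log2 fold change was -0.56 (SE 0.06, adjusted p by edgeR = 1.58e-08), and it was -0.26 with the GC and length offset (adjusted p by edgeR = 6.49e-04, and between 3e-15 and 6.49e-04 under other settings). Parts of its exons, 174 and 47 of 5113 bases, are shared with a noncoding gene and an rRNA gene on the opposite strand, and the strand setting of the counting is not given in the sources used here.

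The interferon-stimulated response element, a site bound by IRF proteins and by the STAT complex of interferon signaling, was searched for in the promoters as its core, GAAA followed by NN (any 2 bases) and again GAAA, on both strands (TTTC, NN and TTTC on the other). RefSeq promoters (GRCm38.p6, 250 bases before to 50 after a start) were at hand for 8 of the 10 genes, with 11 starts, and Dhx58 and Zbp1 had no entry. The core was present in 2 of the 11, against 3.44% of all 32851 promoters. Both matches lay just after the annotated start, at bases 33 to 42 in Ifih1 and 19 to 28 in Eif2ak2. The windows around these matches (chr2:62646206-62646235 and chr17:78882535-78882564, both on the minus strand and written along the gene, with the core in capitals) are shown because, of the 11 starts, only these hold it:
Ifih1: gagaagagaatcGAAACAGAAAccgatctg
Eif2ak2: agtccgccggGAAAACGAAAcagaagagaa
A match describes the letters in this window and not a bound site.

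The adaptor and the kinase that carry the signal onward moved in opposite directions. Mavs (ENSMUSG00000037523, chromosome 2, 131234063 to 131248025), the adaptor shared by MDA5 and RIG-I, had 42.4 and 40.4 CPM in shCtrl and 59.5 and 60.4 CPM in shUSP9X. The groups did not overlap, and the rise was 1.45-fold (log2 fold change 0.53, SE 0.07, adjusted p by edgeR = 1.28e-07). Tbk1 (ENSMUSG00000020115, chromosome 10, 121546455 to 121586787) had 78.8 and 76.5 CPM in shCtrl and 58.8 and 57.7 CPM in shUSP9X. It fell by 0.42 on the log2 scale (SE 0.06, adjusted p by edgeR = 7.93e-07), again without overlap. Both kept their direction and their call with the GC and length offset, at 0.32 for Mavs and -0.36 for Tbk1.

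The 3 member genes for enzymes that edit self RNA, degrade DNA or limit its building blocks all rose. Adar (ENSMUSG00000027951, chromosome 3, 89715022 to 89753446) encodes ADAR1, which converts adenosine to inosine in double-stranded RNA, and its mRNAs start at a constitutive and at an interferon-inducible promoter, which values per gene do not separate. It had 52.8 and 56.4 CPM in shCtrl and 153 and 151 CPM in shUSP9X, the widest gap in CPM of the 10 genes. The log2 fold change was 1.48 (SE 0.05, adjusted p by edgeR = 1.46e-18), a 2.78-fold rise. Of its 8118 exon bases, 1365 are shared with Chrnb2 on the opposite strand, which had 16.2 and 15.65 counts in shCtrl against 4.2 and 6.57 in shUSP9X, far fewer than Adar in every library.

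Trex1 (ENSMUSG00000049734, chromosome 9, 109057933 to 109059734), which encodes a DNA exonuclease of the cytosol, had 3.73 and 3.45 CPM in shCtrl and 9.36 and 8.98 CPM in shUSP9X. The groups were well apart, with a 2.53-fold rise (log2 fold change 1.34, SE 0.19, adjusted p by edgeR = 5.64e-07). All 1147 exon bases of Trex1 are also annotated to Atrip, a checkpoint gene on the same strand, so the division of reads between them is an estimate and the value of Trex1 is uncertain. Atrip had 17.3 and 21.0 CPM in shCtrl and 20.6 and 22.0 CPM in shUSP9X, overlapping groups with a log2 fold change of 0.16 (adjusted p by edgeR = 0.218). The sum of both genes, which does not depend on that division, was 21.0 and 24.5 CPM in shCtrl and 29.9 and 31.0 CPM in shUSP9X, so the 2 groups stayed apart.

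Samhd1 (ENSMUSG00000027639, chromosome 2, 157097533 to 157135265), which encodes a hydrolase of deoxynucleotides, had 92.7 and 89.3 CPM in shCtrl and 135 and 145 CPM in shUSP9X. It rose 1.53-fold (log2 fold change 0.62, SE 0.05, adjusted p by edgeR = 5.2e-11), and both shUSP9X libraries exceeded both shCtrl libraries. Its log2 fold change was 0.56 with the GC and length offset and 0.57 without shUSP9X replicate 2, both under 1.5-fold.

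**Figure D2:**
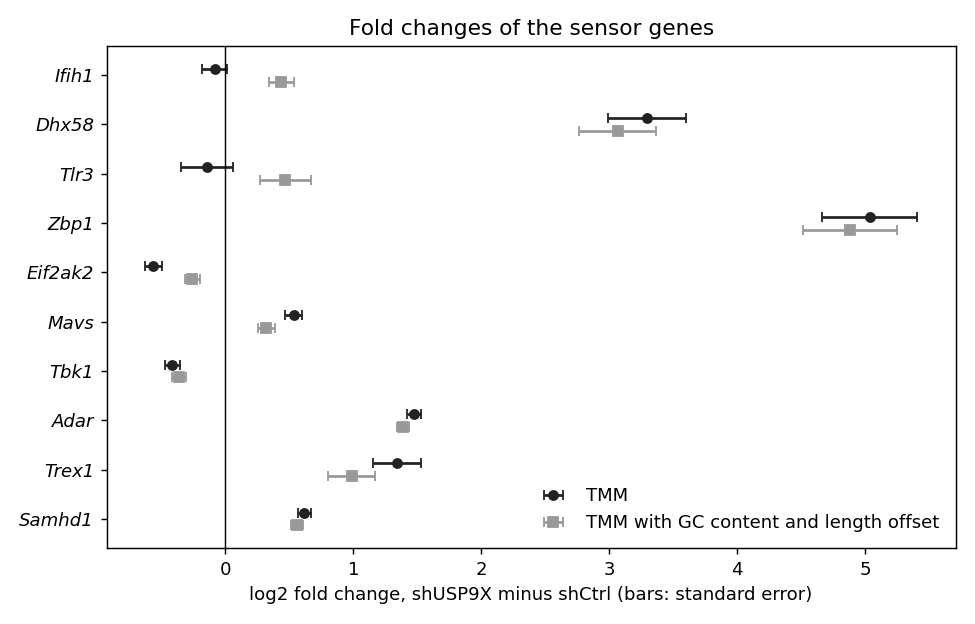
Log2 fold changes of the 10 genes, shUSP9X minus shCtrl, with SEs as bars. Black circles are the TMM-normalized fit and gray squares the same fit with the GC and length offset. Ifih1 and Tlr3 moved from -0.08 and -0.14 to 0.44 and 0.47, while the other 8 genes stayed on the same side of 0.

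With the GC and length offset, 8 of the 10 genes were higher and 2 lower at an adjusted p under 0.05, beside 33.8 and 29.9% of the 11430 genes tested in that fit. The 8 include Zbp1 and Dhx58, which needed their shUSP9X libraries to pass the filter on low counts. The count is therefore no support for a direction. Any group difference that runs along GC content or length is taken out by the offset, from whatever source. It changed the call of Ifih1 and Tlr3 and of no other member.

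Levels were compared between genes per transcript length, on the deposited FPKM scale. In shCtrl, Samhd1 was highest with a mean of 33.5 FPKM, followed by Tbk1 (27.4), Eif2ak2 (16.6), Mavs (14.2), Adar (11.5), Ifih1 (4.79), Trex1 (3.39), Tlr3 (2.06), Dhx58 (0.309) and Zbp1 (0.157). Dhx58 and Zbp1 overlapped between libraries there, and the other neighbors in this order did not. In shUSP9X the order became Samhd1 (49.3 FPKM), Adar (32.3), Mavs (20.4), Tbk1 (19.1), Eif2ak2 (11.0), Trex1 (8.55), Zbp1 (7.84), Ifih1 (4.89), Dhx58 (3.05) and Tlr3 (1.35), with no overlap between neighbors. Adar thus passed Tbk1, Eif2ak2 and Mavs. Zbp1 went from the lowest mean of the 10, where its libraries overlapped those of Dhx58, to a level above Ifih1. That is a description only, since Zbp1 passed the filter on low counts only through shUSP9X. Tlr3 had 1.33 and 2.79 FPKM in the shCtrl libraries although its counts there, 88 and 90, were alike, and FPKM and counts cannot be exchanged for this gene.

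**Figure D3:**
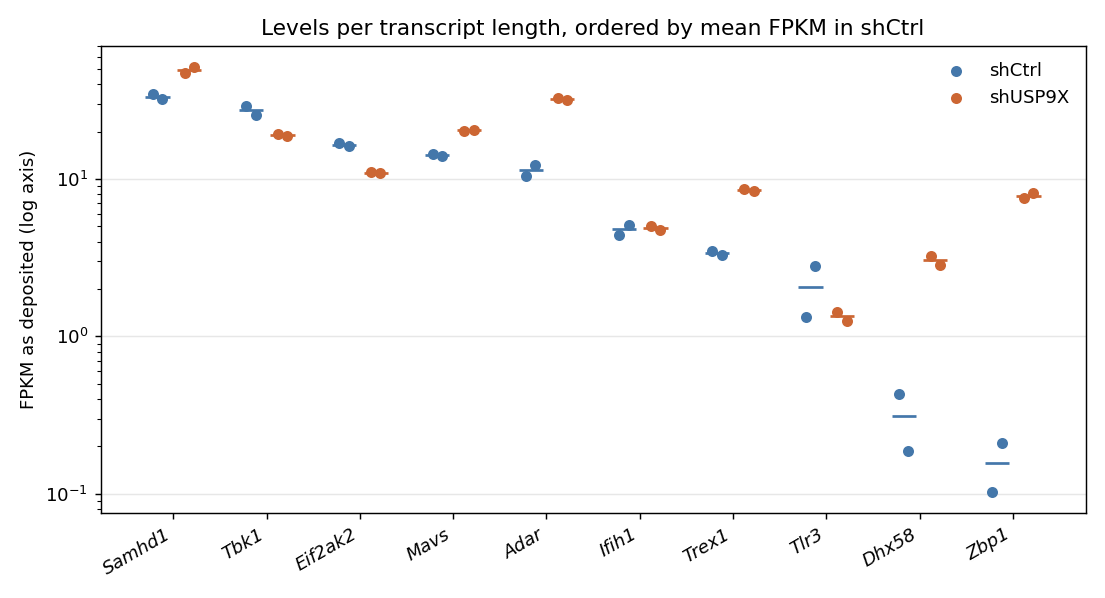
Level of each gene per transcript length (deposited FPKM, log axis), ordered by the mean in shCtrl. Points are libraries and lines are means (n = 2 each). The ranks of Adar, Mavs, Trex1 and Zbp1 were higher in shUSP9X cells, where Adar had 32.3 and Zbp1 7.84 FPKM. The rank of Zbp1 is a description only, since it passed the filter on low counts only through shUSP9X.

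The other genes of the pathway were taken from lists by role, and each count stands beside the 33.8% of all genes tested that were called higher and the 33.6% called lower, or 33.8 and 29.9% where the GC and length offset was used. Of 14 other RNA sensors and partners, all of which were tested, 9 rose and 2 fell, with a median log2 fold change of 0.44, and with the GC and length offset 9 rose and 1 fell. The genes called were not the same in both fits. Dhx15 went from -0.08 (adjusted p by edgeR = 0.0493) to 0.10 with the offset (adjusted p by edgeR = 0.0112). Ddx3x went from -0.52 to 0.06 and Rnf135 from 0.65 to 0.40, and both lost their call. The gene that fell with the offset was Prkra (-0.37), which was not called without it. Rigi, the helicase RIG-I that senses RNA with a triphosphate end, had 127 and 125 CPM in shCtrl and 275 and 286 CPM in shUSP9X (log2 fold change 1.15, adjusted p by edgeR = 3.06e-18). Its CPM was thus well above that of Ifih1 in both groups, and with the GC and length offset both genes were called higher. Trim25, a ubiquitin ligase acting on RIG-I, rose by a log2 fold change of 1.04 (adjusted p by edgeR = 5.67e-17). Ddx60, a helicase linked to RIG-I, had 21 and 20 counts in shCtrl against 57 and 48 in shUSP9X (log2 fold change 1.21, adjusted p by edgeR = 0.00236), and its log2 fold change was 2.04 with the GC and length offset.

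Of 15 cytosolic DNA sensors and partners, 9 rose and 5 fell (median 0.34), or 9 and 3 with the GC and length offset. Cgas, the synthase that makes the second messenger cGAMP on binding DNA, had 8.30 and 10.5 CPM in shCtrl and 13.7 and 16.1 CPM in shUSP9X (log2 fold change 0.67, adjusted p by edgeR = 2.02e-04). Sting1, the receptor of cGAMP, had 27.1 and 29.3 CPM in shCtrl and 43.0 and 44.1 CPM in shUSP9X (0.63, adjusted p by edgeR = 1.86e-07). Both rose without overlap of the groups, as the nuclease Trex1 did. Prkdc, the catalytic subunit of the DNA-dependent protein kinase, fell from 35.5 and 38.7 to 10.3 and 9.97 CPM (-1.87, adjusted p by edgeR = 2.03e-14), and by 0.68 on the log2 scale with the GC and length offset. Ifi203 and Ifi204 fell (-0.37 and -0.57, adjusted p by edgeR = 0.0167 and 1.55e-06). With the GC and length offset Ifi203 had 0.26 and was not called (adjusted p by edgeR = 0.091), and Ifi204 had -0.23. The 2 genes are closely related members of 1 gene family, so their values are uncertain.

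Of 9 endosomal receptors and adaptors, 6 were tested, 2 rose and 1 fell. Tlr8 and Tlr9 had 0 counts in every library. Ticam1, the adaptor of TLR3, was not called (log2 fold change 0.18, 95% interval -0.02 to 0.37, adjusted p by edgeR = 0.109). Myd88, the adaptor of most other Toll-like receptors, rose (0.87, adjusted p by edgeR = 9.22e-10), as did the receptor chaperone Cnpy3 (0.45, adjusted p by edgeR = 2.76e-06, and 0.17 with the GC and length offset), and Hsp90b1, a chaperone of the endoplasmic reticulum, fell (-1.43, adjusted p by edgeR = 8.74e-23).

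Of 18 adaptors, kinases and transcription factors downstream, 5 rose, 5 fell and 8 were not called (median -0.02), or 6 rose and 7 fell with the GC and length offset. The 3 adaptors of TBK1 in the list differed in direction. Tank and Azi2 fell by 1.03 and 0.70 on the log2 scale (adjusted p by edgeR = 1.17e-11 and 7.77e-08), and had -0.50 and -0.44 with the offset. Tbkbp1 had 25.4 and 31.1 CPM in shCtrl and 43.4 and 42.6 CPM in shUSP9X and rose (0.61, adjusted p by edgeR = 1.16e-06), with 0.49 under the offset. Ikbkg, the regulatory subunit of the IKK complex, rose (0.85, adjusted p by edgeR = 3.6e-12), with 1.33 under the offset. Its FPKM in the shCtrl libraries was 16.1 and 28.3, although its counts there were 770 and 701. On log2(FPKM + 0.1) its log2 fold change was 0.63 (adjusted p by limma = 0.0499). Ikbke, the kinase most like TBK1, had 9.23 and 10.1 CPM in shCtrl and 7.49 and 8.67 CPM in shUSP9X and was not called (-0.26, 95% interval -0.58 to 0.06, adjusted p by edgeR = 0.137). Irf3, the factor TBK1 phosphorylates, had 33.6 and 33.8 against 35.2 and 35.6 CPM (0.07, 95% interval -0.09 to 0.24, adjusted p by edgeR = 0.439). Its log2 fold change was -0.20 with the GC and length offset (adjusted p by edgeR = 0.0301, and between 0.0301 and 0.859 under other settings).

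Of 16 other nucleases and editors, 13 were tested, of which 3 rose and 7 fell, with a median of -0.23, or 2 and 5 with the GC and length offset. Adarb1, the related editor ADAR2, had 57 and 61 counts in shCtrl against 25 and 37 in shUSP9X (log2 fold change -1.06, adjusted p by edgeR = 0.00440), a call that was lost without shUSP9X replicate 1 (-0.69, adjusted p = 0.125) and in DESeq2 (adjusted p = 0.0632). Its alternatives ranged from 0.00103 to 0.125. The RNA exonuclease Xrn1 fell by 1.04 on the log2 scale (adjusted p by edgeR = 5.62e-12) but had 0.13 with the GC and length offset (adjusted p by edgeR = 0.145, and between 8.71e-38 and 0.145 under other settings), and Enpp1, which degrades cGAMP outside the cell, fell by 0.70 on the log2 scale (adjusted p by edgeR = 3.76e-09) and had -0.34 with the offset.

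Of 12 genes of the eIF2α kinase pathway and of necroptosis, 3 rose and 7 fell (median -0.17), or 2 and 7 with the GC and length offset. Ddit3, Dnajc3 and Ppp1r15a, a transcription factor, an inhibitor of PKR and a phosphatase subunit that restores translation, fell by 1.04, 0.88 and 0.58 on the log2 scale (adjusted p by edgeR = 4.57e-08, 1.25e-14 and 4.12e-06). With the GC and length offset their log2 fold changes were -1.08, -0.43 and -0.81. The values of Ddit3 are those of the entry ENSMUSG00000025408. Another entry named Ddit3 (ENSMUSG00000116429) lies at overlapping positions on the same strand, and its reads were not added. Ripk3, the partner of ZBP1, had 8.02 and 8.73 CPM in shCtrl and 11.3 and 11.2 CPM in shUSP9X (0.43, adjusted p by edgeR = 0.0109). The call of Ripk3 was lost without shCtrl replicate 1 (0.38, adjusted p = 0.0602), without shUSP9X replicate 1 (0.43, adjusted p = 0.0506), in DESeq2 (adjusted p = 0.120) and with the GC and length offset (0.16, adjusted p = 0.338). Over all settings, those that kept the call included, its adjusted p lay between 0.00585 and 0.341.

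Of 8 cytokines that these pathways switch on, Ifnb1, Ifna4, Ifnl2 and Ifnl3 had 0 counts in all 4 libraries, which allows up to 0.152 to 0.190 CPM per library (3 counts, counting error only). Interferon-β mRNA was thus not detectable at this depth in either group. Cxcl10 had 68 and 50 counts in shCtrl against 207 and 172 in shUSP9X (log2 fold change 1.54, adjusted p by edgeR = 4.14e-08). Ccl5 had 22 and 21 counts in shCtrl against 84 and 75 in shUSP9X (1.74, adjusted p by edgeR = 1.29e-05). Both chemokines rose, together with the leukocyte marker sum given beside Zbp1, whose part in this was not tested. Il6, with 0 and 0 counts in shCtrl against 7 and 5 in shUSP9X, and Tnf, with 1 count in 1 shUSP9X library, stayed under the filter.

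**Figure D4:**
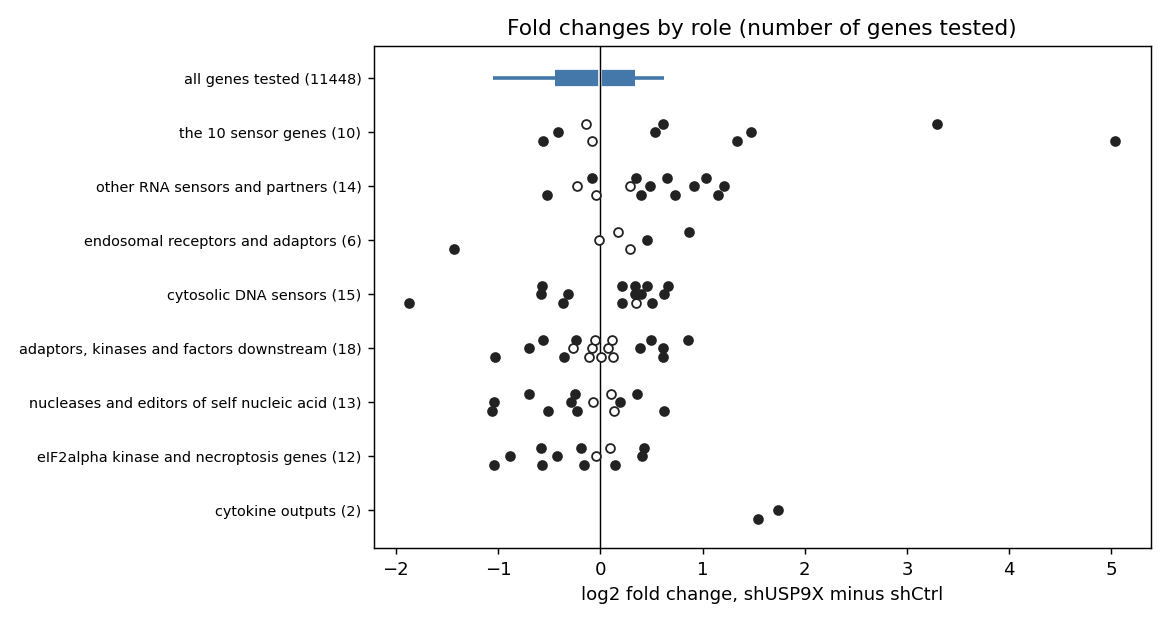
Log2 fold changes of the tested genes of each role, shUSP9X minus shCtrl. Filled points passed an adjusted p under 0.05 and open points did not, with heights staggered only for legibility. The blue bar gives the middle 50% of all 11448 genes tested and the thin line the middle 80%. Zbp1 and Dhx58, which needed their shUSP9X libraries to pass the filter on low counts, lay farthest to the right of all genes shown. The RNA sensors lay mostly above 0.

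The identity of the cells was read from marker genes. In bulk RNA, fewer cells of a type and less RNA per cell cannot be told apart. Of 7 markers of ovarian surface epithelium and mesothelium, the origin of ID8, only Krt7 lay at or under 3 counts in every library, and the list summed to 2407 and 2434 CPM in shCtrl and 2767 and 2715 CPM in shUSP9X. Krt19 was its most abundant gene. Of the 6 tested, 3 rose and 2 fell, or 2 and 4 with the GC and length offset. Over all genes tested, 33.8% were called higher and 33.6% lower, or 33.8 and 29.9% with the offset. The fibroblast counts below stand beside the same shares. Of 13 leukocyte markers, 4 (Ptprc, Itgam, Adgre1 and Csf1r) passed the filter, all with 0 counts in shCtrl, so that they could pass only through shUSP9X and their number says nothing about direction. Itgam was the most abundant, with 72 and 75 counts in shUSP9X, and Cd3e, Siglech, Flt3 and Nkg7 were at 0 throughout. Of 6 fibroblast markers, 3 were tested and fell (1 rose and 2 fell with the GC and length offset), with sums of 252 and 259 CPM in shCtrl and 148 and 144 CPM in shUSP9X, Dcn being the most abundant and Pdgfrb, Lum and Thy1 being at 0. Of 4 endothelial markers, which summed to 10.4 and 11.6 CPM in shCtrl and 6.48 and 7.00 CPM in shUSP9X, Tek was the most abundant and Cdh5 and Kdr were at 0.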

How the data were processed

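Reads were mapped to GRCm38 by the authors, who deposited estimated counts and FPKM values for each gene in each library, without pooling. The submitters' processing notes list fastp 0.18.0, Bowtie2 2.2.8, HISAT2, StringTie 1.3.1 and RSEM with no role, and the annotation release, read filters and strand setting are not given in the sources used here. The deposited counts are not normalized, and between 6.40 and 6.69% of them are not whole. They were rounded, filtered with filterByExpr, scaled by TMM and tested across all genes with edgeR's quasi-likelihood test (edgeR 4.0.16, R 4.3.3) with Benjamini-Hochberg adjustment. CPM values divide the unrounded counts by the TMM-scaled library size. Standard errors are the log2 fold change divided by the square root of the F statistic, and intervals use its degrees of freedom. Library totals of 15611363 to 19978889 counts put 3 counts, taken as the floor, at 0.152 to 0.190 CPM.

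With 2 libraries against 2, no permutation test can reach a p of 0.05. Coordinates, GC content and the length of the longest transcript came from GENCODE M21 (GRCm38), with values for 99.8% of the genes tested. The offset removed each library's loess trend (span 0.3) of log2 CPM (prior count 2) on GC content and length. Other alternatives were DESeq2 1.42.0, other scalings and filters, limma 3.58.1 on log2(FPKM + 1) or log2(FPKM + 0.1) where the mean reached 1 FPKM, a replicate block, and each library left out in turn, where a group left with 1 library is assumed to vary like the other. On data simulated for this comparison, with 11403 genes tested, edgeR recovered 98% of 200 changed genes and called 9 of 11203 unchanged ones. The changed genes were drawn from well-counted genes only, and no trend on GC content or length was built in. Far fewer genes were changed than were called in the real data. These rates therefore do not carry over to genes with few counts, such as Zbp1 and Dhx58, or to the real share of calls.

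The members and the lists were chosen with earlier results of these data known. Named genes are Usp9x, the members, the 3 called genes of each role list with the largest change and a mean of at least 1 CPM, and 8 genes needed to explain a role. Ifi203, Ifi204, Tbkbp1, Il6, Tnf, Tlr8, Tlr9, Atrip, Chrnb2, the other interferons and the marker genes were named after their values were seen. So were Dhx15, Ddx3x, Rnf135, Prkra, Polr3f and Pnpt1.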

Additional observations from a re-analysis of the deposited data

How the results depend on the processing

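Of the 8 members other than Zbp1 and Dhx58, the 4 higher and 2 lower held their direction in every alternative fit. They also held their call (adjusted p under 0.05) in each fit that kept 2 libraries per group. Zbp1 and Dhx58 stayed higher where tested, which is no support for their direction, since they needed the shUSP9X libraries to pass the filter. With at least 10 counts in every library these 2 genes were not tested, leaving 4 of 8 higher and 2 lower. Of all 10866 genes tested with that filter, 3692 were higher and 3716 lower. At the study's cutoff 1233 of all genes were higher and 2143 lower, with 0 members lower. Ifih1 turned to 0.0277 on log2(FPKM + 1), to 0.0333 on log2(FPKM + 0.1) and to 0.44 with the GC content and length offset, with or without a replicate block. With that offset Tlr3 turned to 0.47, Xrn1 to 0.13, Ticam1 to -0.0499 and Irf3 to -0.20, and with the block added these came to the same values (Ticam1 -0.0502). Under the offset without the block, other genes turned too, among them Ifi203 (0.26), Dhx15 (0.10), Polr3f (0.16), Pnpt1 (0.26), Dcn (0.39) and Krt19 (-0.20). Irf3 was also -0.0158 on log2(FPKM + 1) and -0.0166 on log2(FPKM + 0.1). On log2(FPKM + 1), which understates the change of low genes, Dhx58 had 1.63 and Zbp1 2.94. The offset changed Usp9x to -2.51. The cause of these changes was not tested. The median log2 fold change over all genes was 0.03 with upper-quartile scaling and -0.03 with library size alone. The labels give both groups the replicate numbers 1 and 2, but nothing says that these mark a shared culture or day, and deviations of same-numbered libraries correlated at -0.05 across genes. With the replicate block 3855 genes were higher and 3810 lower, and 6 members were higher and 2 lower. Depth limits the fold changes of Zbp1, Dhx58 and Ddx60, whose shCtrl libraries hold at most 21 counts.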
